A study of Xenopus tropicalis with 4 samples.

Results

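Genes of 12 families of developmental transcription factors were read out of a survey of polyadenylation sites in whole adult frogs. The families were Hox, Sox, Fox, Pax, Gata, Tbx, Lhx, Dlx, Nkx, Irx and Meis, and that of six4. Members were taken by symbol: each symbol that starts with 1 of these family names (Hox clusters a to d, Fox letters a to r) followed by a digit, with gata4 and sox3 left out. This gave 103 of the 15410 genes in the table and 295 of the 59046 sites that carry a gene. A single member, nkx2-4, had no site other than 1 on the strand opposite to its exons, so 102 members with 289 sites had counts. The rule used symbols and no measured value, but it was set with earlier results of these data known.

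The data come from 2 adult females and 2 adult males of Xenopus tropicalis, a diploid clawed frog, with no genotype, strain, age in days or treatment given. WTTS-seq reads the 3' ends of polyadenylated RNA, and each library was made from the whole-body RNA of 1 frog. Library totals ran from 1531471 to 2779715 reads, and the members held 0.148% to 0.194% of the reads that fall in genes. Levels below are reads of a gene summed over its sites and scaled to the effective library size (CPM, reads per 1000000). Since a transcript gives its reads at its end, CPM at gene ends does not grow with transcript length. Gene sums also hold reads at sites within introns, for which this was not tested. In whole-body RNA, fewer cells of a type and less RNA per cell cannot be told apart.

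Developmental transcription factors bind DNA through family-specific domains, the homeodomain in Hox, Lhx, Dlx, Nkx, Irx, Meis and six4-like proteins, the paired domain in Pax proteins, the HMG box in Sox proteins, the forkhead in Fox proteins and zinc fingers in Gata proteins. They set the identity of tissues and body regions in the embryo, and many stay on in adult tissue, such as gata1 in red cell precursors, foxa1 in liver and gut, or Hox genes along the trunk and limbs. In Xenopus some are stored as mRNA in the egg: foxh1 carries the response to Nodal signals, foxi2 acts in the early ectoderm, and sox7 mRNA lies in the vegetal part of the egg.

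The sexes differed in markers of the egg and of somatic tissue. A list of 18 egg genes summed to 5750 and 5480 CPM in females 1 and 2 and to 15.1 and 11.3 CPM in males 1 and 2, and all 17 that were tested were higher in females. Muscle markers were higher in males for 19 of 19 tested, liver for 11 of 16, nerve for 13 of 15 with 1 higher in females, connective tissue for 11 of 13, blood for 7 of 10, skin and gut epithelium for 12 of 18 with 3 higher in females, and kidney for 2 of 4. Median log2 fold changes (male over female) of these 7 lists were 3.80, 3.31, 4.16, 3.95, 3.001, 2.77 and 3.26. Testis and germ cell markers went both ways, with 2 higher in males and 3 in females of 7 tested and a median of -2.05. The 95 tested somatic markers had a median of 3.63, against -0.33 for all tested genes. Gene sums and intronic sums were also computed on a scale that sets that somatic median to 0, called the somatic scale. Single sites, site use, strands, shares and sums over families or clusters were not. The part of egg RNA and of the tissue mix in any result was not tested.

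Summed over a family, Sox transcripts stood higher in both females than in both males, Dlx and Nkx overlapped between the sexes, and the other 9 families stood higher in both males. Hox genes together had 21.8 and 20.6 CPM in females 1 and 2 against 155 and 175 CPM in males 1 and 2. Sox genes together had 450 and 403 CPM in the females against 283 and 173 CPM in the males. Of this, sox11 alone held 353.2 and 286.4 CPM in the females against 25.3 and 11.3 CPM in the males. The order of the Sox sums rests on sox11, and 5 of the 8 tested Sox genes were higher in males. The Fox family was the most abundant, with 912 and 478 CPM in the females against 1320 and 1850 CPM in the males. Of this, foxk2 alone held 159.4 and 129.6 CPM in the females against 541.1 and 1269 CPM in the males. Meis genes had 12.9 and 10.9 CPM in the females against 203 and 130 CPM in the males. Dlx and Nkx reached no more than 8.97 CPM in any frog. Family sums are given with no test. The effective library size was below the read total in both males and above it in both females. Pax genes had 18 and 14 reads in the females against 20 and 11 in the males. Fox genes had 2339 and 1091 reads against 2183 and 1961. For both families the order of the frogs depends on that scale.

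**Figure D1:**
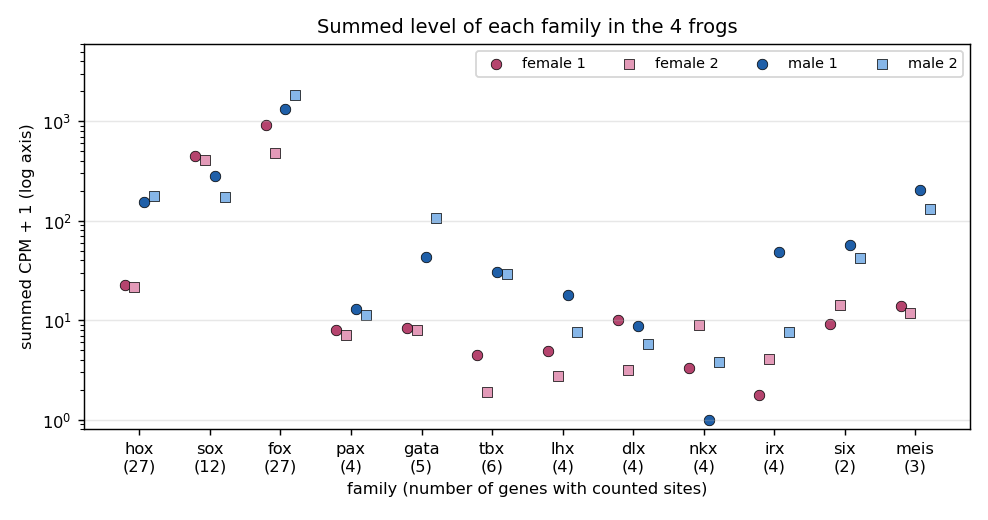
Summed CPM plus 1 of each family (log axis) in females 1 and 2 and males 1 and 2, with the number of genes that had counted sites in brackets. Hox, Meis, Tbx and Gata points of the males lie above those of the females, Sox points lie below, and Irx is high in male 1.

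Most members were thinly read. Their median was 20 reads over the 4 libraries, against 90 for all genes, and 37 members had under 10 reads. The gene test was open to 33 of 102 members (32.4%), against 67.1% of all genes. Of these 33, 11 passed the read filter in both sexes, 16 through the males and 5 through the females, and 1 by another pair of frogs; members that passed through 1 sex had to differ, so the counts below are a description. Among the 69 untested members, with 1 to 37 reads each, the mean CPM was higher in males for 54 and higher in females for 15. The males had the smaller effective libraries, so equal reads give a higher CPM in males. The share over all untested genes is not given, so these counts say nothing particular to the members.

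Of the 33 tested members, 19 were higher in males and 6 in females, and 8 did not pass (edgeR quasi-likelihood test, adjusted p under 0.05 over 10257 genes). Among all tested genes 16.8% were called higher in males and 19.1% higher in females. The members' median log2 fold change was 2.65 (all genes -0.33), while on the somatic scale it was -0.98 (all genes -3.95). The sexes did not overlap in 28 of the 33, against 74.5% of all tested genes. The call of 19 members higher in males depended on the scale: on the somatic scale 0 of 33 were higher in males by edgeR (0 at an unadjusted p under 0.05) and 15 were higher in females. On that scale 7794 of the 10257 tested genes were called in either direction. The 15 calls are therefore nothing particular to the members. The calls also depended on single frogs, as given for the genes below. The number of members tested changed when 1 frog was left out. It was 46 without female 1, 56 without female 2, 36 without male 1 and 51 without male 2. Counts of calls in those fits are therefore not out of 33.

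**Figure D2:**
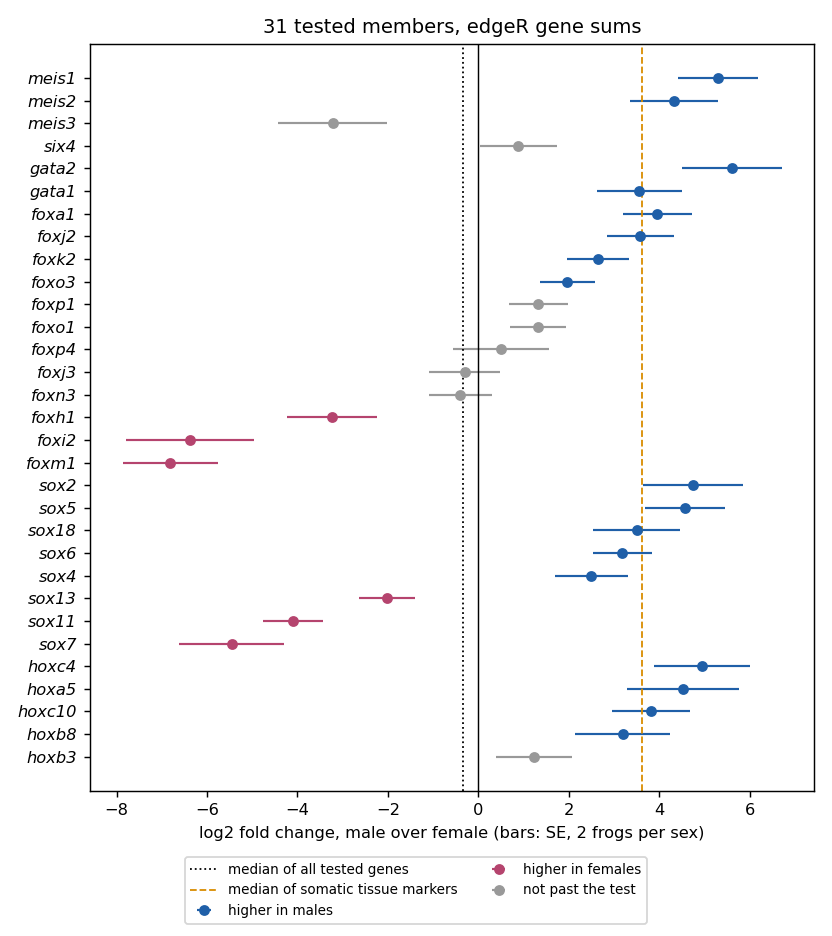
Log2 fold change (male over female) of 31 of the 33 tested members, ordered by family, with bars of 1 SE (2 frogs per sex) and colour by call. The dotted line is the median of all tested genes (-0.33) and the dashed line that of the somatic tissue markers (3.63): most members higher in males lie near the dashed line, and the 6 higher in females lie far to its left.

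The 6 members higher in females were foxm1, foxi2, foxh1, sox11, sox7 and sox13, and all 6 were also higher on the somatic scale and with library size alone. foxm1, which drives genes of cell division, had 313 and 120 reads in females 1 and 2 against 2 and 0 in males 1 and 2. Its level was 87.3 ± 49.1 CPM in females (SD, n = 2), and the ratio of female over male was 121 (95% counting interval 33.4 to 1000; adjusted p = 0.00778). The main site of foxm1 lay at 1787435 on the minus strand of chromosome 3, overlapping an exon, and took 94.0% of its reads. sox11, a factor of neural progenitors, was the most read of the Sox genes, with 906 and 654 reads in the females against 42 and 12 in the males. These are 319.8 ± 47.2 and 18.3 ± 9.89 CPM (log2 -4.10 ± 0.66 SE, adjusted p = 0.00842), a gap far wider than the spread within either sex.

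The maternal genes showed the same split of the sexes with fewer reads. sox7 had 86 and 94 reads in the females against 0 and 2 in the males (ratio 50.4, interval 13.8 to 419; adjusted p = 0.0147). foxi2 had 29 and 135 reads in the females against 1 and 0 in the males, a ratio of 91.8 (interval 16.3 to 3650; adjusted p = 0.0161). The females differed in foxi2: 33 of female 2's reads came from a second site that had 0 reads in female 1. Without female 2 the foxi2 call was lost. foxh1 had 50 and 23 reads in the females against 2 and 2 in the males (log2 -3.24 ± 0.99, edgeR adjusted p = 0.0385), a call lost without female 1, female 2 or male 1. It was also lost with a replicate block (adjusted p = 0.0534) and in the fit without intronic sites (log2 -2.98, adjusted p = 0.0543). foxh1 itself has no intronic site, so none of its own reads were removed in that fit. sox13, a member of the group D Sox genes, had 123 and 124 reads in the females against 21 and 13 in the males (log2 -2.03 ± 0.62, adjusted p = 0.0373), and its call was lost whichever single frog was left out.

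Hox genes sit in 4 clusters and mark position along the body. The table held 27 of them, 8 of cluster a (chromosome 6), 6 of b (chromosome 10), 7 of c (chromosome 2) and 6 of d (chromosome 9), with 545 reads in all. Cluster c summed to 2.73 and 2.63 CPM in the females against 63.3 and 56.7 CPM in the males, cluster a to 4.29 and 3.50 and to 39.2 and 39.7 CPM, and cluster d to 2.34 and 0.876 and to 14.5 and 21.7 CPM. Cluster b had the highest female level, 12.5 and 13.6 CPM against 38.0 and 56.7 CPM in the males. That level came mostly from hoxb3. Along the clusters, paralogue groups 9 to 13 had 3.90 and 1.75 CPM in the females against 63.3 and 36.9 in the males, and groups 1 to 4 had 10.5 and 15.3 and 43.4 and 71.8. In each of these 4 clusters and 3 blocks of groups both males stood above both females.

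Of the 5 Hox genes open to the test, hoxc4, hoxc10, hoxa5 and hoxb8 were higher in males. hoxc10, a gene of the lumbar region and hindlimb, had 6 and 3 reads in females 1 and 2 against 49 and 25 in males 1 and 2, which is 1.83 ± 0.725 and 26.6 ± 4.19 CPM (log2 3.81 ± 0.87, adjusted p = 0.0172). Its most read site was at 142907636 on the minus strand of chromosome 2, inside an exon. hoxc4, of the neck and upper trunk, had 1 and 1 reads in the females against 19 and 19 in the males (ratio 33.9, interval 8.77 to 290; adjusted p = 0.015). Intronic sites gave 19 and 14 of these male reads and 0 of the female reads. The only other site of hoxc4 had 1 and 1 reads in the females against 0 and 5 in the males. Without intronic sites hoxc4 was not tested. hoxa5, which patterns the neck and lung region in mammals, had 0 and 3 reads in the females against 29 and 15 in the males (ratio 26.2, interval 8.40 to 132; adjusted p = 0.0279). hoxb8 had 9 and 1 reads in the females against 37 and 16 in the males (log2 3.19 ± 1.06, adjusted p = 0.0486, and -0.39 on the somatic scale).

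hoxb3, a gene of the hindbrain and neck, had the highest mean level of the Hox genes and did not pass, with 21 and 27 reads in the females against 18 and 39 in the males (log2 1.23 ± 0.84, adjusted p = 0.272, and -2.38 on the somatic scale). Its females and males overlapped. Without female 1 the calls of hoxc4 and hoxa5 were lost, without female 2 those of hoxc4, hoxa5 and hoxc10, and without male 1 that of hoxa5. hoxb8 kept its call only without male 2, among the 4 fits that left out a frog, and lost it with library size alone and with both other read filters tried (no filter beyond 1 read, and 1 CPM in at least 2 libraries). The 22 untested Hox genes had 1 to 24 reads each, and for 19 of them the mean CPM was higher in males. Equal reads give a higher CPM in males, and the share over all untested genes is not given.

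**Figure D3:**
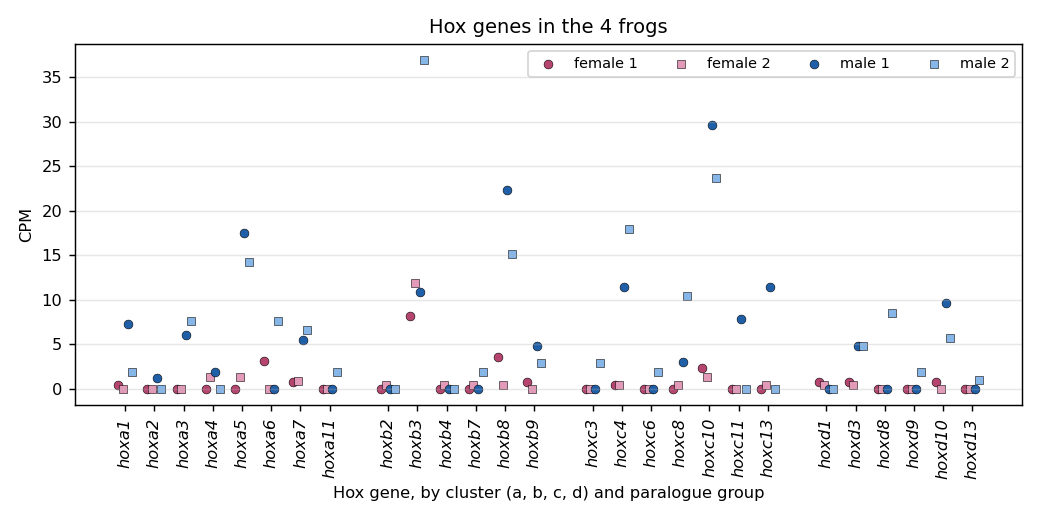
CPM of the 27 Hox genes in the 4 frogs, ordered by cluster and paralogue group. The males' points of hoxa5, hoxb8, hoxc4 and hoxc10 stand above the females' points, while hoxb3 has 8.19 and 11.8 CPM in the females against 10.9 and 36.9 CPM in the males.

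Meis proteins bind DNA together with Hox and Pbx proteins, and meis1 and meis2 were higher in males while meis3 was not. meis1 had 15 and 2 reads in the females against 260 and 121 in the males, or 3.36 ± 3.52 and 135.6 ± 30.0 CPM (log2 5.29 ± 0.88, adjusted p = 0.00899). Its call was kept in each of the 4 fits that left out a frog. meis2 had 3 and 4 reads in the females against 75 and 16 in the males (log2 4.33 ± 0.97, adjusted p = 0.0165), and the call was lost without female 1 and without male 1. meis3, a gene of hindbrain patterning in Xenopus, ran the other way, with 15 and 19 reads in the females against 2 and 0 in the males (log2 -3.22 ± 1.21, adjusted p = 0.07). Its main site, at 58926010 on the plus strand of chromosome 8, had 12 and 16 reads in the females and 0 in both males. That is at least 5.23-fold higher in females against a floor of 3 reads over the males. This site passed the site test (edgeR, adjusted p = 0.0197). It could enter that test only through the females, so a call could only point to them.

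The homeodomain gene six4 acts in muscle and sense organs, and its gene sum did not pass. It had 13 and 29 reads in the females against 35 and 12 in the males, which overlap. Its log2 fold was 0.88 ± 0.85 (adjusted p = 0.436), and -0.11 with library size alone and -2.73 on the somatic scale.

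Gata factors of the blood line were higher in males. gata2, a factor of blood progenitors, had 1 and 2 reads in the females against 25 and 55 in the males (ratio 47.6, interval 15.7 to 236; adjusted p = 0.0123). gata1, a factor of red cells, had 7 and 2 reads in the females against 33 and 26 in the males (log2 3.56 ± 0.94, adjusted p = 0.025, and -0.02 on the somatic scale). The gata1 call was lost without female 1 and without female 2. Blood markers as a list summed to 4390 and 799 CPM in the females against 19600 and 22400 CPM in the males. The endodermal factor gata6 had 3 and 3 reads in the females against 11 and 20 in the males, and with 37 reads it was the most read member left out of the test. gata5 had 6 and 8 reads and 1 and 7 reads, and gata3 had 2 and 1 and 0 and 3.

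Among Sox genes, sox2, sox5, sox6, sox18 and sox4 were higher in males, in contrast to sox11, sox7 and sox13. sox5 and sox6, which act together in cartilage, had 7 and 4 and 18 and 31 reads in the females. In the males sox5 had 139 and 27 reads and sox6 had 189 and 77. Their log2 folds were 4.57 ± 0.89 (adjusted p = 0.0118) for sox5, and 3.18 ± 0.66 (adjusted p = 0.0137) for sox6, which was -0.44 on the somatic scale and lost its call without female 1. The neural stem cell factor sox2 had 1 and 1 reads in the females against 29 and 8 in the males (ratio 33.0, interval 8.52 to 283; adjusted p = 0.0183). Its call was lost without female 1 and without female 2, and it had no value without male 1. sox18, a factor of blood and lymph vessels, had 3 and 2 reads and 16 and 16 reads (log2 3.50 ± 0.96, adjusted p = 0.0279, and -0.04 on the somatic scale). sox4 had 9 and 9 reads and 33 and 24 reads (log2 2.49 ± 0.80, adjusted p = 0.0446, and -1.10 on the somatic scale). Both sox18 and sox4 lost their calls under library size alone, under both other read filters and whichever frog was left out. sox9, sox10 and sox17a had 2, 2 and 1 reads in all.

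Of the 13 tested Fox genes 5 were higher in males, foxa1, foxj2, foxk2 and foxo3 among them, and 3 were higher in females. foxa1, which opens chromatin in liver and gut cells, had 12 and 7 reads in the females against 138 and 41 in the males, or 3.87 ± 1.14 and 61.0 ± 31.5 CPM. Its log2 fold was 3.96 ± 0.75 (adjusted p = 0.0114), and the call was kept whichever frog was left out. The site at 88792385 on the minus strand of chromosome 8 took 94.4% of foxa1 reads. foxa2 had 2 and 0 reads in the females against 7 and 5 in the males, too few for the test.

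The most read Fox genes were foxk2 and foxn3. foxk2, a widely expressed gene tied to metabolism, was the most read member, with 409 and 296 reads in the females against 897 and 1342 in the males. These are 144.5 ± 21.1 and 904.8 ± 514 CPM (log2 2.65 ± 0.69, adjusted p = 0.024), and -0.98 on the somatic scale. The foxk2 call was lost without female 1, female 2 or male 2. foxj2 had 31 and 8 reads in the females against 164 and 95 in the males (log2 3.58 ± 0.74, adjusted p = 0.0139), and -0.03 on the somatic scale; the call was lost without female 2. foxn3, a repressor in the DNA damage checkpoint, had 1223 and 306 reads in the females against 439 and 209 in the males. Its sexes overlapped (log2 -0.40 ± 0.70, adjusted p = 0.671), and the sign turned to 0.80 without female 1. On the somatic scale foxn3 was higher in females (-4.03, edgeR adjusted p = 0.00222).

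Of the insulin-controlled FoxO genes foxo3 was higher in males and foxo1 did not pass. foxo3 had 54 and 83 reads in the females against 241 and 83 in the males, or 28.7 ± 10.8 and 111.9 ± 47.3 CPM (log2 1.97 ± 0.61, adjusted p = 0.0396). On the somatic scale it was higher in females (-1.66, edgeR adjusted p = 0.0466), and without intronic sites the log2 fold was -1.30 (adjusted p = 0.234). The call was lost with library size alone, with both other read filters and without female 1, female 2 or male 1. foxo1 had 41 and 31 reads and 63 and 38 reads (log2 1.32 ± 0.62, adjusted p = 0.127, and -2.30 on the somatic scale). foxo4, named after its values were seen, had too few reads for the test, 10 and 13 in the females against 3 and 5 in the males.

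Pax, Tbx, Lhx, Dlx, Nkx and Irx genes were all below the reads needed for the test. tbx3, a limb and heart gene, had 1 and 0 reads in the females against 6 and 18 in the males. Its neighbour tbx5 had 1 and 1 reads and 0 and 1 reads, and tbx2 had 3 reads, all in female 1. tbx15 had 0 reads in both females and 19 and 3 in the males. In sum the Tbx genes had 3.51 and 0.876 CPM in the females against 29.6 and 28.4 CPM in the males. lhx2, a gene of forebrain, eye and limb, had 1 and 1 reads in the females against 26 and 2 in the males. dlx5, which acts in bone and limb, had 2 and 2 reads and 9 and 4 reads. nkx6-1, of pancreas and motor neurons, had 6 and 12 reads in the females against 0 and 2 in the males.

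Of the Pax genes known from muscle stem cells, pax3 overlapped between the sexes and pax7 did not in CPM. pax3 had 14 and 7 reads in the females against 12 and 1 in the males, and pax7 had 1 and 7 reads and 8 and 7 reads. Female 2 and male 2 both had 7 pax7 reads, so the order of the frogs in pax7 depends on the effective library size. The kidney and thyroid gene pax8 had 3 and 0 reads and 0 and 2 reads. The 4 Irx genes, irx1, irx2, irx3 and irx5, were read mostly in male 1. irx1 had 0 and 2 reads in the females against 24 and 2 in males 1 and 2, irx2 had 1 and 2 and 23 and 3, and the family summed to 0.78 and 3.07 CPM in the females against 47.1 and 6.62 CPM in the males. No member of these 6 families had enough reads for a test of the sexes.

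Sites that lie within introns, of class code i as in the Cuffcompare scheme, took a larger share of reads in the members than in genes at large in the males. Of the members' 289 sites 79 (27.3%) were intronic, against 21.9% of all genes' sites. Intronic sites took 4.20% and 2.52% of the members' reads in females 1 and 2 against 20.5% and 14.4% in males 1 and 2. Over all genes they took 2.68% and 2.11% in the females against 5.83% and 4.41% in the males. Without foxp1 and meis1, chosen after their values were seen, the members' shares were lower. They were 1.28% and 0.979% in the females against 12.6% and 7.89% in the males. That set still held foxo3, with 13 and 2 intronic reads in the females against 228 and 73 in the males. In the males meis1 had 240 and 111 intronic reads and foxp1 had 88 and 80. Together with foxo3 these genes held most of the members' intronic reads in both males. The larger share is therefore not shown for the other members, and the share without foxo3 is not given. For 10 members the most read site was intronic, and 5 had no site of another class. No test of these shares was made.

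Summed over intronic sites alone, 9 of the 10 members with enough reads were higher in males and 0 in females (0 at an unadjusted p under 0.05; edgeR, adjusted over 1884 genes). Among all genes 76.4% of such intronic sums were higher in males and 4.09% higher in females, so a high count was the rule among genes open to this test. Most of these members passed the read filter through the males (hoxa3 and hoxc4 had no female read), which by itself favours that direction. On the somatic scale 0 of 7 tested members were higher in males (edgeR, 0 at an unadjusted p under 0.05). Fewer members were called in each fit that left out a frog. The members tested in those fits numbered 10 without female 1, 10 without female 2, 6 without male 1 and 9 without male 2. The share over all genes in these fits is not given. Without intronic sites 17 of 30 members were higher in males and 5 in females, against 16.5% and 18.0% of all genes.

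foxo3 was the member called in the test of site use. The site at 75299503 on the minus strand of chromosome 5, overlapping an exon, had 21 and 46 reads in the females against 0 and 2 in the males. An intronic site 56.0 kb upstream, at 75355553, had 2 and 0 reads in the females against 91 and 36 in the males (log2 6.42 ± 1.23, adjusted p = 0.0197). Another at 75341076 had 4 and 0 reads and 42 and 12 reads (adjusted p = 0.0397). Intronic sites together took 24.1% and 2.41% of foxo3 reads in the females against 94.6% and 88.0% in the males. Each of the 3 tested sites passed the read filter through the sex where it was high, which by itself favours a difference in use. Over these sites males and females differed in site use (diffSpliceDGE, adjusted p = 0.00565), and so did the intronic sum against the rest (adjusted p = 0.00153). The first of these calls was lost without female 2 and without male 1, and the second without female 2.

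foxo3 was 1 of 9 members called in the site use test, or 11.1%, against 15.9% of the 3536 genes tested. In the test of intronic sums against the rest, chosen after the values were seen, 2 of 5 members were called, foxo3 and foxn3, against 57.2% of 1225 genes. In foxn3 the intronic sites took 0.654% and 0.980% of reads in the females against 6.15% and 15.3% in the males (adjusted p = 0.00837), a call lost without female 1, female 2 or male 2. The intronic sum of foxn3 had a log2 fold of 3.34 ± 1.10 (adjusted p = 0.0094, and -0.25 on the somatic scale), and its other sites had -0.27 ± 0.71 (adjusted p = 0.783). Most foxn3 reads, 90.0%, came from 1 exonic site at 65193501 on the minus strand of chromosome 8.

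**Figure D4:**
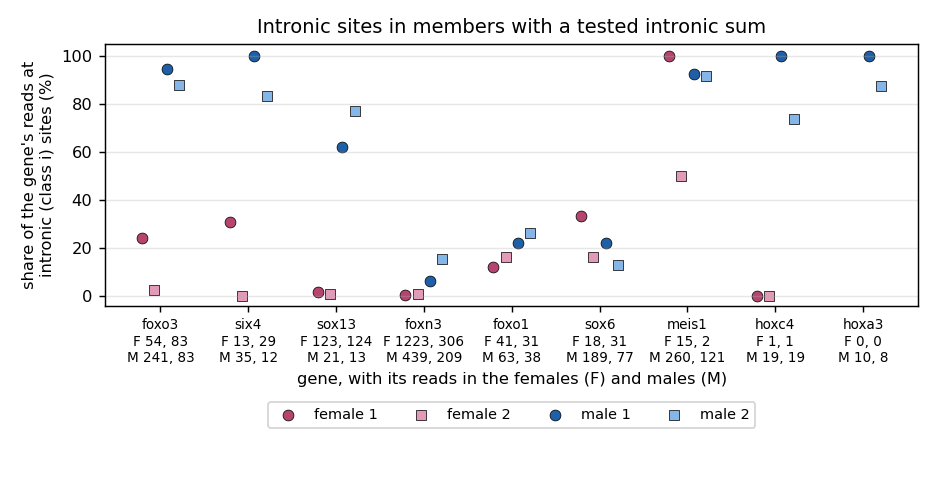
Share of a gene's reads at intronic sites (percent) in females 1 and 2 and males 1 and 2, for 9 of the 10 members with a tested intronic sum, with each gene's reads below its name. In foxo3, six4, sox13, foxn3, foxo1 and hoxc4 both males lie above both females, and in sox6 and meis1 the sexes overlap. hoxa3 has no female reads. The share of such genes over all genes is not given.

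In sox13 and six4 the intronic and the other sites went opposite ways. The intronic sites of sox13 had 2 and 1 reads in the females against 13 and 10 in the males (ratio 13.7, interval 4.14 to 71.2; adjusted p = 0.00183). Its other sites had 121 and 123 reads in the females against 8 and 3 in the males (log2 -3.39 ± 0.76, adjusted p = 0.0157). Thus sox13 was higher in females at its transcript end and higher in males within its introns. The intronic call was lost without female 1, without female 2 and without male 2. For six4, the intronic sites had 4 and 0 reads in the females against 35 and 10 in the males (log2 4.15 ± 1.25, adjusted p = 0.00547), lost without female 2 and with no value without male 1. The other sites of six4 had 9 and 29 reads in the females against 0 and 2 in the males, too few for the test. The difference between the intronic and the other sites of sox13 and six4 was not tested, since a class of each did not pass the read filter of that test.

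meis1 was read almost wholly within introns. Its 12 intronic sites had 15 and 1 reads in the females against 240 and 111 in the males (log2 5.27 ± 1.21, adjusted p = 0.00133), and its 3 other sites had 0 and 1 and 20 and 10 reads (log2 5.56 ± 1.26, adjusted p = 0.0162). Both kinds of site were higher in males, and the intronic share did not pass the test of a difference (adjusted p = 0.854). The most read site, intronic at 30140224 on the plus strand of chromosome 5, took 121 of male 1's and 22 of male 2's reads. hoxc4 and hoxa3 were likewise intronic in the males, with 19 and 14 reads at intronic sites of hoxc4 and 10 and 7 at those of hoxa3, and 0 in both females. These are at least 19.6-fold and 10.1-fold higher in males against a floor of 3 reads over both females (adjusted p = 0.000902 and 0.00043). The hoxc4 intronic call was lost without female 2, that of hoxa3 without female 1 and without female 2, and neither had a value without male 1. The intronic sites of hoxa3, at 32913660, 32913694 and 32927052, lie among sites of hoxa5 and other cluster a genes on the same strand. The only exonic site of hoxa3 lies at 32951552. An intronic site of hoxc4, at 142849460, had 14 reads, all in male 1. It lies between the exonic site of hoxc4 and a site of another cluster c gene on the same strand. Whether the intronic reads of hoxa3 and hoxc4 belong to neighbouring genes was not tested.

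In sox6 and foxo1 intronic and other sites had folds of the same sign. The log2 fold of the intronic sum was 2.92 ± 1.10 for sox6 (adjusted p = 0.0196, and -0.66 on the somatic scale) and 2.08 ± 0.91 for foxo1 (adjusted p = 0.0397, and -1.497 on the somatic scale). Both calls were lost in each of the 4 fits that left out a frog. The intronic share did not pass for either gene (adjusted p = 0.838 and 0.417).

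foxp1, a factor of brain, heart and lymphoid cells, showed opposite patterns on the 2 strands, which its gene sum hid. All 19 of its sites were intronic, so the table's classes do not give the strand of the gene, and whether the libraries keep the strand of the RNA is not given in the sources used here. On the plus strand 14 sites spread over 168.5 kb of chromosome 4 had 27 and 9 reads in females 1 and 2 against 88 and 79 in males 1 and 2. On the minus strand 5 sites within 563 bases (130201030 to 130201593) had 67 and 24 reads in the females against 0 and 1 in the males. The minus-strand ratio of female over male was 51.0 (interval 8.92 to 2030).

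The sum of all foxp1 sites was 94 and 33 reads in the females against 88 and 80 in the males (log2 1.33 ± 0.66, adjusted p = 0.147, and -2.29 on the somatic scale). The strands differed between the sexes (diffSpliceDGE on the sum of each strand, adjusted p = 0.00368), in a test chosen after these values were seen. It called 55.2% of the 96 genes open to it, and the foxp1 call was lost without female 1, female 2 or male 1. Of the plus-strand sites, 130217226 (1 and 1 reads in the females, 23 and 28 in the males; adjusted p = 0.0197) and 130238095 (3 and 0, 23 and 18; adjusted p = 0.0328) passed the site test. Both entered that test through the males, which favours that direction. By level, 13 of 14 plus-strand sites were higher in males and all 5 minus-strand sites in females. Sites of 1 gene are not replicates, and the share over all intronic sites is not given. Some sites had few reads: 130159383, with 1 read in female 1 and 1 in male 2, counts as higher in males through the scale.

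**Figure D5:**
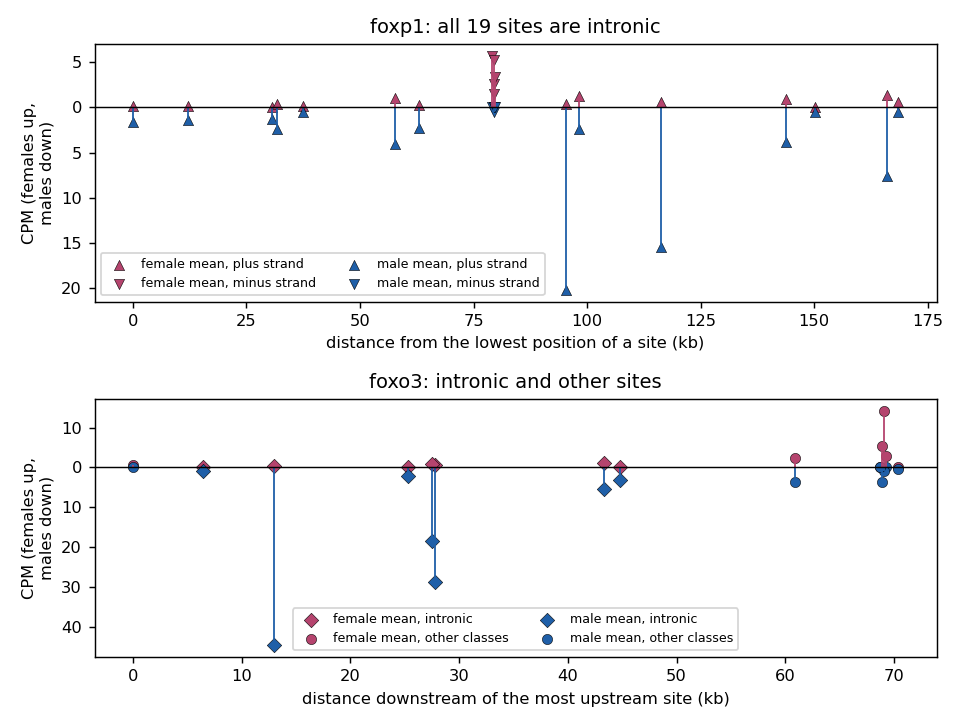
Mean CPM of each site of foxp1 (top, triangles up for the plus and down for the minus strand) and foxo3 (bottom, diamonds for intronic sites and circles for others), with females above and males below the line, against distance in kb. The 5 minus-strand foxp1 sites form 1 female cluster, and in foxo3 the male reads lie at intronic sites away from the exonic end.

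sox11 had 3 tested ends on the plus strand of chromosome 5, at 132102360 (exonic), 132103114 and 132103575 (both downstream of the annotated end). Of the reads at these 3 sites the last took 56.4 ± 9.77% in females and 44.8 ± 22.9% in males (SD, n = 2), and the use of sites did not pass (adjusted p = 0.977). All 3 sites were higher in females by themselves, with log2 folds of -4.17, -4.44 and -4.45 (adjusted p = 0.0197 each). In foxk2, on an unplaced scaffold, a site downstream of the annotated end took 62.8 ± 14.9% of the reads at tested sites in females and 75.4 ± 5.25% in males, and use did not pass (adjusted p = 0.709).

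By number, 14.5% of the members' sites and 12.2% of all genes' sites lay downstream of the annotated gene end. Sites downstream of the annotated gene end held 27.7%, 31.1%, 26.8% and 47.3% of the members' reads in females 1 and 2 and males 1 and 2, against 6.56%, 6.24%, 4.23% and 3.98% over all genes. foxk2 and sox11 carried most of these reads, and without them the members' shares were 1.81%, 3.5%, 5.79% and 5.64%. A single site was recorded for 48 of 102 members (47.1%), against 30.3% of all genes. By single sites, 21 of the members' 43 tested sites were higher in males and 9 in females, against 16.2% and 19.9% of all 17215 tested sites. Of the 43, 2 are opposite-strand sites left out of the gene sums, 1 of foxk2 and 1 of nkx2-4, which is among the 21. Of the 9 intronic sites among them 8 were higher in males and 1 did not pass, against 58.2% higher in males and 8.8% higher in females of all tested intronic sites. A site can pass the read filter through the sex where it is high, which by itself favours a call in that direction.

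Of 18 tested genes that encode partners of these families (Pbx, Pknox, Tgif, Ldb, Eya, Dach, Tle, Lmo and others) 5 were higher in males and 2 in females, and the median log2 fold was 0.06 (-0.87 by library size alone, -3.56 on the somatic scale). eya4, a transcriptional coactivator, was higher in males (3.79 ± 0.81, adjusted p = 0.015), and so was lmo2, a partner of Gata factors in blood (2.97 ± 0.62, adjusted p = 0.0142, and -0.65 on the somatic scale). tgif2, of the Tgif homeodomain genes, was higher in females, with 59 and 65 reads against 0 in both males (adjusted p = 0.0115). Polycomb and trithorax genes, which keep Hox genes off or on, had 2 of 28 higher in males and 6 higher in females, with a median of -1.10. Among them ezh2, the Polycomb methyltransferase, was higher in females (-2.78 ± 0.75, adjusted p = 0.0271), as was kmt2b (-4.07 ± 0.91, adjusted p = 0.0166). Of 38 tested genes of other transcription factor families 17 were higher in males and 6 in females; their median was 1.31 (0.44 by library size alone, -2.27 on the somatic scale). The muscle factor mef2c (4.57 ± 0.65, adjusted p = 0.00726) and nfib (4.20 ± 0.62, adjusted p = 0.00726) were among those higher in males. zic2, a neural factor, was higher in females, with 316 and 228 reads against 0 and 1 in the males (adjusted p = 0.00659). These lists stand beside 16.8% and 19.1% of all tested genes, and differences between the lists were not tested.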

How the data were processed

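The table the authors deposited gives, for each polyadenylation site, raw read counts in 4 libraries beside strand, position, gene and class code, per the file headers. It also holds p-values of the authors' own test, raw, Bonferroni and FDR adjusted, and a signed fold-change score, per the file headers. Reads passed through Bowtie2 2.2.3, per the submitters' processing notes, while the build, the site caller and the counting of positions (from 0 or 1) are not given in the sources. Chromosome numbers were assigned from where symbols lie in the RefSeq gene table of UCB_Xtro_10.0, and positions are the table's own. The letters of the class codes were taken to mean what Cuffcompare uses them for; no header names the scheme.

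Counts were summed per gene identifier over sites of a class other than x (opposite to an exon). The test of genes and sites was that of edgeR 4.0.16 (R 4.3.3, TMM, filterByExpr with minimum count 10 and total 15, glmQLFit, glmQLFTest, Benjamini-Hochberg at 0.05), and site use with diffSpliceDGE in genes with at least 2 tested sites. Standard errors are the absolute log2 fold over the square root of F. On simulated data the edgeR tests recovered the changed features, while the site use test called unchanged genes more often than its nominal rate. Few features were changed in the edgeR simulations, equally in both directions. They therefore do not cover the wide difference between the sexes in these data. Female 1 and 2 and male 1 and 2 had 2380500, 1778737, 2779715 and 1531471 reads, and 3.98%, 14.4%, 13.1% and 9.43% of reads had no gene. No label speaks of molecular identifiers, so intervals (95%, Clopper-Pearson) and the floor of 3 reads cover counting error only. DESeq2 1.42.0 was an alternative. With 2 frogs against 2 the smallest p of an exact permutation test is 0.333, so none was used. Where a single frog of a sex is left, it is assumed to vary like the other sex.

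Named genes are, per family, the 3 of smallest p called in each direction, the member of highest mean CPM and a fixed set, plus members called in site use and the 6 with most intronic reads. Named outside this rule, after their values were seen, were hoxb8, sox4, sox18, meis3, hoxa3, tbx5, tbx15, gata5, irx3, irx5, foxo4, hoxd8, hoxc11 and hoxc13. Of the fixed set, genes with no value here were not analysed. Values of some tested members are not reported here. Members and lists were chosen with earlier results of these data known. Of the alternatives, 33 were listed at the start and 28 were added later.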

Additional observations from a re-analysis of the deposited data

Results flagged for a closer look

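Sites on the strand opposite to a member's exons (class x) were left out of the gene sums and still held 226 reads at 6 sites: 136 in female 1, 35 in female 2, 37 in male 1 and 18 in male 2. There are no control samples for these sites, so a background level for these reads is not given. Most came from foxk2, whose main opposite site had 114, 23, 21 and 6 reads in that order (log2 -1.69, edgeR adjusted p = 0.211). The only site of nkx2-4, at 25176856 on the plus strand of chromosome 5, had 0 and 1 reads in the females against 16 and 12 in the males (log2 5.12 ± 1.18, edgeR adjusted p = 0.0197). The members' 289 sites of other classes held 12152 reads over the 4 libraries. Whether the libraries keep the strand of the RNA is not given in the sources. Whether the class x reads come from the gene or from an opposite transcript was not tested.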

How the results depend on the processing

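RLE size factors and DESeq2 kept all 25 member calls. On the somatic scale 7794 genes were called against 3689, 0 members higher in males and 15 higher in females; without intronic sites these were 0 and 12 (edgeR; 0 higher in males at an unadjusted p under 0.05 in both), and 0 intronic sums were higher in males (0 at an unadjusted p under 0.05). Folds that turned there were hoxb3 -2.38, sox6 -0.44, foxj2 -0.033, foxk2 -0.98, foxo1 -2.30, foxo3 -1.66, foxp1 -2.29, gata1 -0.019, six4 -2.73, sox4 -1.10, hoxb8 -0.39, sox18 -0.04 and foxp4 -3.09, and the intronic sums of foxp1 -2.29, foxn3 -0.25, sox6 -0.66 and foxo1 -1.497. six4 was -0.11 with library size alone, foxo3 -1.30 without intronic sites and foxn3 between -1.17 and 0.80 when 1 frog was left out. Library size alone gave 5 intronic sums higher in males of 8 tested. With class x included the hoxb8 call was lost.

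A filter of 1 CPM in 2 libraries called 13496 sites against 6216, with 34 member sites higher in males and 26 in females, 1397 genes in site use against 562 and 4 members. No filter gave 13 member sites higher in males. Without intronic sites 130 genes and 0 members (0 at an unadjusted p under 0.05) passed in site use, and 271 genes by Simes p. The intronic share was 1.11% in females on the gene's own strand, and 0.552% in females and 11.4% in males over tested sites. The own-strand setting also leaves out genes of unknown strand. Among these is foxp1, with 94 and 33 intronic reads in females 1 and 2, so the lower share does not show reads on the opposite strand. The cause of the other changes was not tested.

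When 1 frog was left out, 1499 to 4289 genes were called, 7 to 25 members higher in males and 3 to 5 in females, and 8 to 26 higher in males without intronic sites. Sites ranged from 2395 to 5777, with 3 to 16 member sites higher in males and 5 to 8 in females. Site use ranged from 0 genes (636 at an unadjusted p under 0.05) to 778, and from 0 (2 at an unadjusted p under 0.05) to 2 members. Intronic sums of members ranged from 0 (6 at an unadjusted p under 0.05) to 5, intronic against the rest from 0 (3 at an unadjusted p under 0.05) to 3, and strands from 0 (1 at an unadjusted p under 0.05) to 1. With a replicate block 4713 genes and 17 and 5 members were called (sox4, sox18 and foxh1 lost); same-numbered frogs share only a number in the labels, and the correlation of their deviations over genes was 0.30. Depth limits 69 members, which had too few reads for the test.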

Other observations

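Among the 69 untested members, male reads came from male 1 alone in 6, from male 2 alone in 23 and from both males in 28. hoxc11 had 13 reads and irx3 had 8 reads, all in male 1, and hoxc13 had 19 reads there and 1 in female 2. irx5 had 1 and 3 reads in the females, 23 in male 1 and 2 in male 2. hoxd8 had 9 reads, all in male 2. These genes were chosen after their values were seen.

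In the authors' deposited table, 17 of the members' 295 sites had an FDR under 0.05, 7 of them higher in females and 10 in males. The share over all sites in that test is not given here. The test used here called 16 of these 17 in the same direction, and both tests used the same counts.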
